A study of Homo sapiens with 14 samples.

Results

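Aminoacyl-tRNA synthetases are the enzymes that join each amino acid to its transfer RNA, and 35 of their genes were followed here in prostate cancer cells treated with inhibitors of fucosylation or sialylation. The genes were taken by name from the deposited count tables, which share 27819 genes, and 19 of them encode cytosolic and 16 mitochondrial enzymes. The cells were CWR22RV1, an established human prostate cancer cell line, and every library therefore comes from a single line. All cultures were kept for 72 h, either in DMSO alone, the vehicle (3 libraries), or with an inhibitor added. Fucotrim I was given at 30 μM (3 libraries), whereas Fucotrim II was at 60 μM (2 libraries), SGN-2FF at 100 μM and P-SiaFNEtoc at 2 μM (3 libraries each). The first 3 compounds inhibit fucosylation and P-SiaFNEtoc inhibits sialylation. Their doses differ, so values for the inhibitors are given side by side and the inhibitors were not compared with one another. The same 3 DMSO libraries served as the control in every comparison, so the 4 comparisons are not independent of each other. The study's methods give 3 biological repeats per condition, and for Fucotrim II 2 libraries were analysed here.

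Each cytosolic synthetase charges tRNAs for the ribosomes that read nuclear messages, and a separate, nuclear-encoded set of enzymes is imported into mitochondria to charge the tRNAs of the mitochondrial genome. Glycyl- and lysyl-tRNA synthetase are exceptions, since GARS1 and KARS1 each provide the enzyme of both compartments; they were counted here with the cytosolic genes. In the cytosol, several synthetases are held together by scaffold proteins in the multisynthetase complex. Many cytosolic synthetase genes are known targets of ATF4, the transcription factor that is made when amino acids run short or proteins fold poorly in the endoplasmic reticulum.

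Between 12553094 and 19981453 counts fell on genes per library. The keratin gene KRT8 was found at 477 CPM in DMSO, and all 10 luminal prostate markers examined passed the filter on low counts; 7, 6, 7 and 7 of them rose with Fucotrim I, Fucotrim II, SGN-2FF and P-SiaFNEtoc and 0 fell, against 21.6%, 25.6%, 11.5% and 9.02% of all genes tested that rose by the same rule (adjusted p under 0.05). Of 8 markers of other cell types, the basal genes TP63, KRT5 and KRT14, the neuroendocrine gene CHGA, the leukocyte gene PTPRC and the endothelial gene PECAM1 had at most 5 counts in any library, while the synaptic vesicle gene SYP (105 CPM) and the collagen gene COL1A1 (17.3 CPM) were detected. SYP and COL1A1 both rose with Fucotrim II, by 0.44 and 0.59 on the log2 scale, and SYP rose by 0.15 with Fucotrim I, a call lost without DMSO replicate 2 or 3 or Fucotrim I replicate 3 (adjusted p from 0.0862 to 0.242). The part of these markers in the results on synthetases was not tested.

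Levels are given as CPM, the counts of a gene relative to the size of its library, after TMM scaling of all 14 libraries together. In DMSO, CPM divided by the length of the merged exons of each gene had a median of 36.3 CPM per kb over 17 cytosolic genes and 9.42 CPM per kb over 15 mitochondrial genes. EPRS1, which encodes the joint glutamyl- and prolyl-tRNA synthetase, was highest at 98.3 CPM per kb. Among the mitochondrial genes, only IARS2, the isoleucine enzyme, exceeded the cytosolic median, with 93.6 CPM per kb. The lowest of the mitochondrial genes on this scale was NARS2, the asparagine enzyme, at 1.79 CPM per kb. The choice of length moved the order of single genes: with the length of 1 canonical transcript per gene, a scale added after the data were seen, GARS1 was highest at 133 ± 2.25 CPM per kb (SD, n = 3), AARS1, SARS1, IARS2 and EPRS1 followed at 117 ± 4.50, 112 ± 2.58, 110 ± 3.95 and 108 ± 1.77 CPM per kb, and PARS2, the proline enzyme, was lowest at 6.78. The 4 genes after GARS1 had overlapping ranges of mean ± SD from one to the next. The medians of the 2 groups were then 86.0 and 18.9 CPM per kb, and IARS2 was again the only mitochondrial gene above the cytosolic median. With the median length of each gene's transcripts IARS2 was highest of all, at 631 CPM per kb, before EPRS1 at 456, and the medians were 176 and 29.0 CPM per kb.

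The valine enzymes VARS1 and VARS2 and the cysteine enzyme CARS1 were left out of those medians, because almost no reads had been counted on them. VARS1 had 0 to 6 counts and VARS2 0 to 6 counts per library, too few for any test. CARS1 had 18 to 119 counts, which corresponds to 2.36, 1.72 and 2.07 CPM in DMSO. The 3 genes share a property of the genome build: 100% of the 100-base windows along the exons of VARS1 (chromosome 6, 31777518 to 31795752, hg38) recur unchanged on 6 alternate sequences of hg38, as do 97.5% of those of VARS2 (chromosome 6, 30914205 to 30926459) on 5 and 81.4% of those of CARS1 (chromosome 11, 3000922 to 3057613) on 3. For each of the other 32 synthetase genes the share was 0%. The lowest of those 32 in DMSO was PARS2, with up to 17.7 CPM. Another annotated gene on the same strand shares 63.0% of the exon bases of VARS2, against 0% for VARS1 and CARS1. Among the other genes listed for translation, windows were searched only for EEF1D, TSEN34 and AARSD1, which were singled out after their values were seen. AARSD1, of the aminoacyl-tRNA editing factors, was not tested with any inhibitor and had 0% of its windows on alternate sequences. A gene on the same strand shares 34.2% of the exon bases of AARSD1. The other 2 combined few counts with such windows. The elongation factor gene EEF1D had 1.26, 0.834 and 1.25 CPM in DMSO and 100% of its windows on an alternate sequence, and the splicing endonuclease gene TSEN34 had 58 counts in 1 DMSO library, 0 in every other library and 98.4% of its windows on alternate sequences. Whether the authors' alignment included the alternate sequences, and what became of reads that map to several places, is not given in the sources used here. The part of these copies, or of exon bases shared with other genes, in the low counts was not tested.

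**Figure D1:**
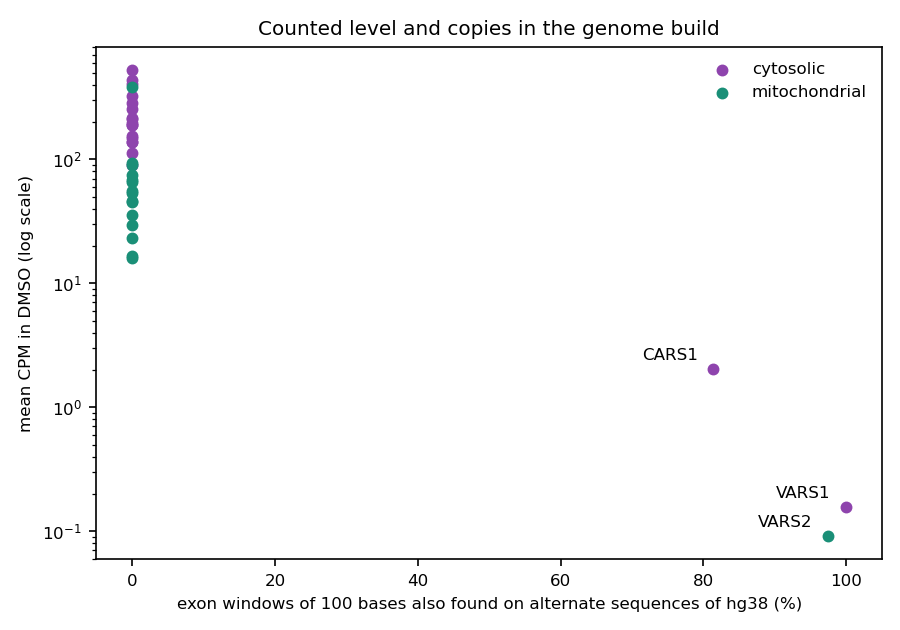
Mean CPM of each of the 35 synthetase genes in the 3 DMSO libraries (log scale) against the share of its 100-base exon windows that recur on alternate sequences of hg38. CARS1, VARS1 and VARS2 are the only genes with a share above 0%, and they lie at 2.05, 0.157 and 0.0917 CPM.

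The question asked of each inhibitor was which synthetase genes changed against DMSO. With Fucotrim I, 12 of the 18 cytosolic genes tested changed, 11 of them downwards (AARS1, EPRS1, GARS1, IARS1, LARS1, MARS1, NARS1, SARS1, TARS1, WARS1 and YARS1), and QARS1 alone rose. In bulk RNA, less RNA of a gene per cell and fewer cells that express it cannot be told apart. Of the 15 mitochondrial genes tested, 5 fell (IARS2, LARS2, MARS2, NARS2 and WARS2) and 2 rose (CARS2 and SARS2). A gene was called changed at an adjusted p under 0.05 in edgeR's quasi-likelihood test over all genes. By that rule 43.8% of the 14188 genes tested with Fucotrim I changed, 22.1% downwards and 21.6% upwards. Lower calls thus made up 61.1% of the cytosolic and 33.3% of the mitochondrial genes tested, against 22.1% of all genes. The median log2 fold change was -0.37 for the cytosolic and -0.09 for the mitochondrial genes, and 0.00 for all genes. Without CARS1 the cytosolic median was -0.44 over 17 genes and the calls were unchanged. LARS1 lost its call (adjusted p = 0.0467) when any DMSO library or Fucotrim I replicate 1 or 3 was left out (adjusted p from 0.0679 to 0.230), and MARS2 (adjusted p = 0.0474) when any DMSO library or Fucotrim I replicate 2 or 3 was left out (0.0530 to 0.260). Without Fucotrim I replicate 3, CARS1 passed the test as a rise of 0.72 (adjusted p = 0.0219).

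With Fucotrim II, 10 cytosolic genes fell (AARS1, EPRS1, FARSB, GARS1, IARS1, KARS1, MARS1, NARS1, TARS1 and YARS1) and QARS1 again rose. Mitochondrial genes fell in 7 cases (EARS2, IARS2, LARS2, MARS2, NARS2, WARS2 and YARS2), while CARS2 and SARS2 rose. The background was 51.4% of 14617 genes called, 25.7% lower and 25.6% higher, against 55.6% of the cytosolic and 46.7% of the mitochondrial genes called lower. The medians were -0.18 and -0.12 on the log2 scale. The Fucotrim II libraries had 1.62 and 6.73 CPM of CARS1, and the cytosolic median was -0.26 without Fucotrim II replicate 2. Without Fucotrim II replicate 1, 3 cytosolic genes were called higher (QARS1, CARS1 and FARSA), CARS1 by 1.70 and FARSA by 0.22; that fit holds a single Fucotrim II library, which is assumed to vary as the DMSO libraries do. AARS1, KARS1, MARS1 and EARS2 each lost their call when any DMSO library was left out, and AARS1, KARS1 and EARS2 also without Fucotrim II replicate 1, with adjusted p-values from 0.0616 to 0.195.

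With SGN-2FF 14 of the 33 synthetase genes tested changed. The cytosolic genes AARS1, EPRS1, GARS1, IARS1, MARS1, SARS1, TARS1, WARS1 and YARS1 fell, 9 in all, and QARS1 rose. IARS2 and LARS2 fell and CARS2 and SARS2 rose among the mitochondrial genes. Over all 14312 genes tested 20.6% were called, 9.08% lower and 11.5% higher, so that the falls made up 9 of the 18 cytosolic and 2 of the 15 mitochondrial genes tested. The medians were -0.11 and 0.00 on the log2 scale. Leaving out SGN-2FF replicate 2 reduced the cytosolic genes called lower from 9 to 5, because AARS1, MARS1, TARS1 and YARS1 then missed the threshold (adjusted p from 0.0554 to 0.106).

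With P-SiaFNEtoc no synthetase gene passed the test in edgeR, where 16.3% of the 14259 genes tested did (7.33% lower, 9.02% higher). An unadjusted p under 0.05 was reached by 8 of the 33 synthetase genes tested, 4 cytosolic and 4 mitochondrial, against 30.1% of all genes tested. DESeq2 and limma-voom each called 1 of them, EPRS1, which fell by 0.11 (adjusted p = 0.0319 and 0.0409), and in edgeR it had an adjusted p of 0.0516. Without P-SiaFNEtoc replicate 3 it passed in edgeR as well (adjusted p = 0.0490), and without P-SiaFNEtoc replicate 2 SARS2 passed as a rise of 0.22 (adjusted p = 0.0313). The medians were 0.01 for the cytosolic and -0.03 for the mitochondrial genes.

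**Figure D2:**
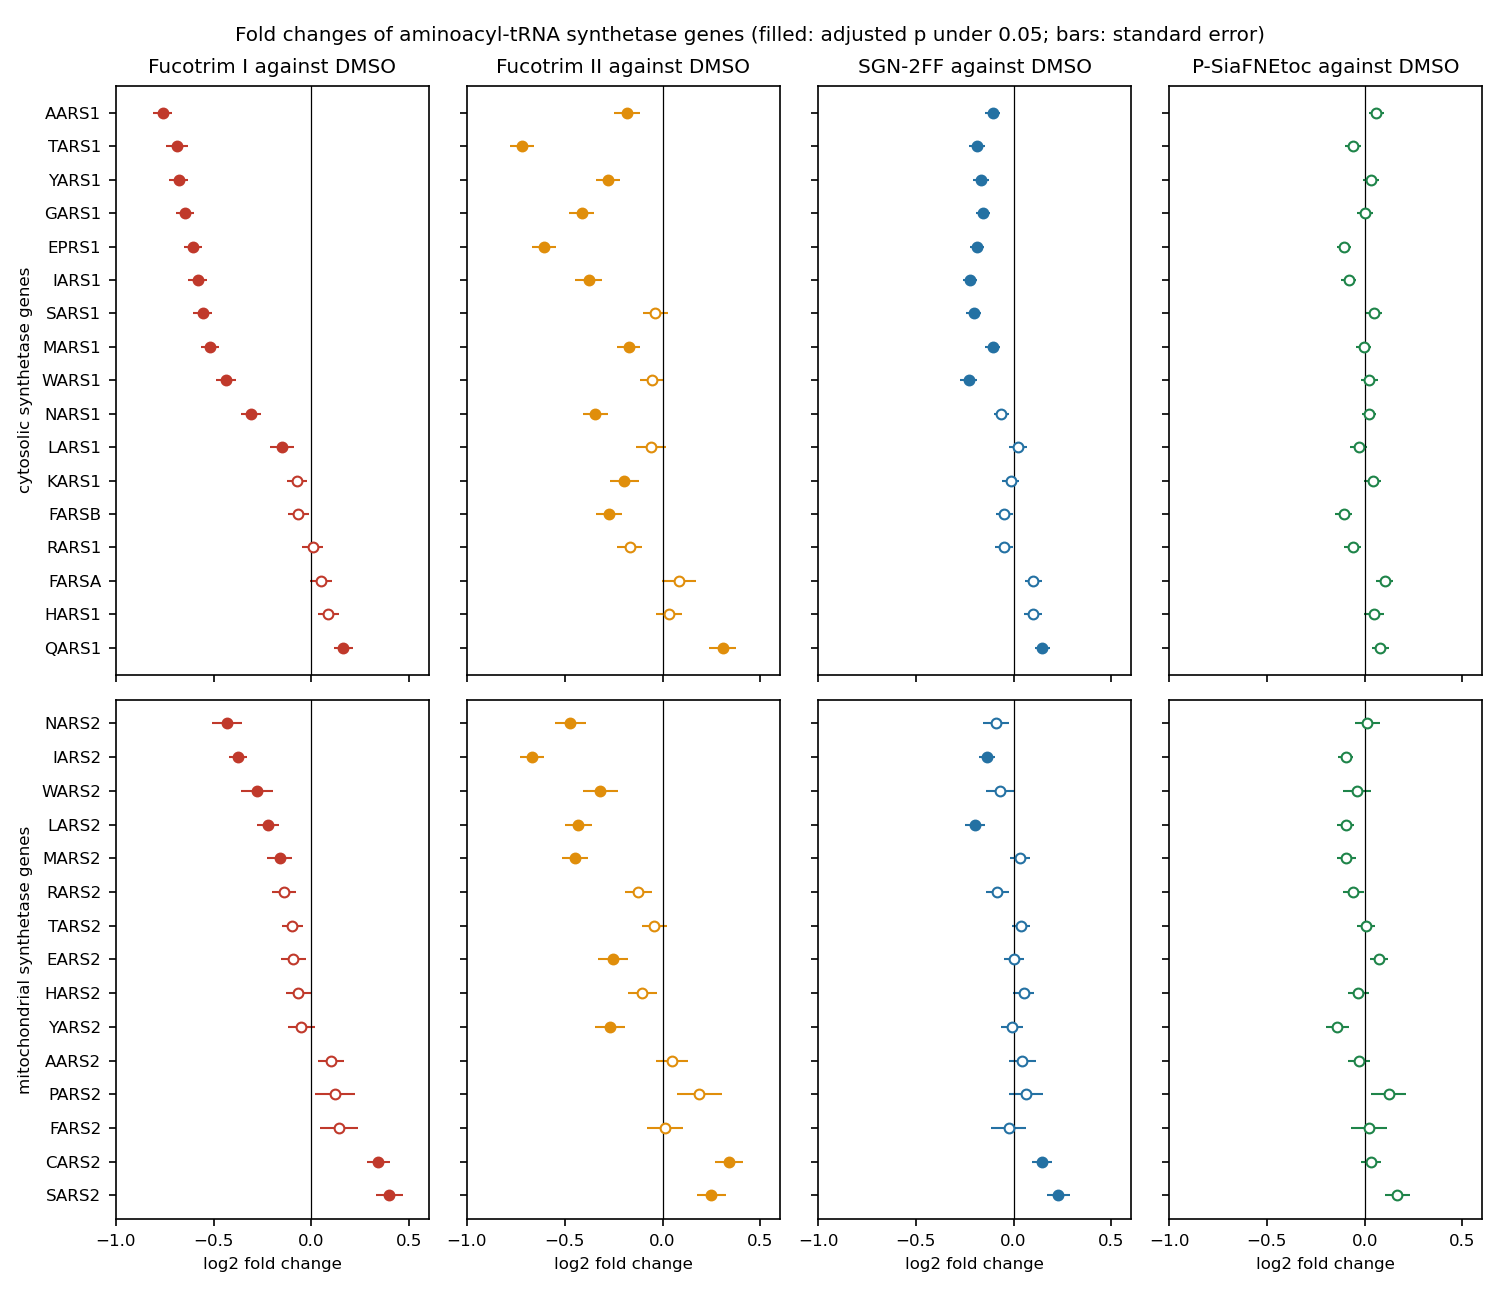
Log2 fold change of 17 cytosolic (upper row) and 15 mitochondrial (lower row) synthetase genes with each inhibitor against DMSO, ordered by the value with Fucotrim I. Points are estimates, bars are standard errors and filled points passed the test; CARS1, with values from -0.46 to 1.03, and the untested VARS1 and VARS2 are not drawn. Fucotrim I spreads the cytosolic genes from -0.76 for AARS1 to 0.16 for QARS1, and with P-SiaFNEtoc all points are open.

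Across the 3 fucosylation inhibitors, 7 cytosolic genes (AARS1, EPRS1, GARS1, IARS1, MARS1, TARS1 and YARS1) and 2 mitochondrial genes (IARS2 and LARS2) were called lower with each, and QARS1, CARS2 and SARS2 higher with each. Of the 14066 genes tested with all 3, 6.15% were called lower and 7.42% higher with each. No gene was called in opposite directions with any pair of inhibitors. CARS1, FARSA, HARS1, RARS1 and VARS1 of the cytosolic genes and AARS2, FARS2, HARS2, PARS2, RARS2, TARS2 and VARS2 of the mitochondrial genes were called with none. The treatments share their control, so these counts describe the calls and were not tested.

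AARS1, the alanine enzyme, lies on chromosome 16 (70251983 to 70289707, hg38). It had 417, 404 and 386 CPM in DMSO, 228, 238 and 245 with Fucotrim I, 340 and 372 with Fucotrim II, 381, 376 and 355 with SGN-2FF and 414, 417 and 425 with P-SiaFNEtoc. All Fucotrim and SGN-2FF libraries lay below the DMSO libraries, those of Fucotrim I by the widest margin, and the P-SiaFNEtoc libraries overlapped with DMSO. The log2 fold change was -0.76 with Fucotrim I (SE 0.05, adjusted p = 3.06e-10), -0.18 with Fucotrim II (SE 0.07, adjusted p = 0.0441) and -0.11 with SGN-2FF (SE 0.04, adjusted p = 0.0448). The call with SGN-2FF was lost without DMSO replicate 1 or 2 or any SGN-2FF library (adjusted p from 0.0529 to 0.176), and that with Fucotrim II without any DMSO library or Fucotrim II replicate 1 (0.0707 to 0.191). AARS2, the mitochondrial alanine enzyme, stood at 51.8, 50.6 and 58.4 CPM in DMSO and at 55.2, 59.4 and 57.0 with Fucotrim I. With the other inhibitors AARS2 ranged from 48.5 to 58.9 CPM. Its libraries overlapped with DMSO under every inhibitor, and its log2 fold changes lay between -0.03 and 0.10.

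TARS1, the threonine enzyme (chromosome 5, 33440696 to 33468091), had 201, 196 and 192 CPM in DMSO, 115, 133 and 117 with Fucotrim I, 123 and 117 with Fucotrim II, 173, 161 and 180 with SGN-2FF and 180, 192 and 193 with P-SiaFNEtoc. The libraries of both Fucotrims lay at similar levels, well under those of DMSO. It fell by 0.69 with Fucotrim I (SE 0.06, adjusted p = 9.59e-09), by 0.72 with Fucotrim II (SE 0.06, adjusted p = 3.29e-05) and by 0.19 with SGN-2FF (SE 0.04, adjusted p = 0.00245). Without SGN-2FF replicate 2 the last value had an adjusted p of 0.0554. TARS2, the mitochondrial counterpart, had 93.7, 93.0 and 91.5 CPM in DMSO, 85.6, 87.0 and 86.9 with Fucotrim I, 87.4 and 93.5 with Fucotrim II, 94.8, 95.2 and 93.5 with SGN-2FF and 92.4, 89.4 and 97.2 with P-SiaFNEtoc. Its Fucotrim I libraries lay below DMSO, but the difference of -0.10 did not pass the test (adjusted p = 0.141).

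YARS1, the tyrosine enzyme (chromosome 1, 32775237 to 32818031), fell from 213, 210 and 207 CPM in DMSO to 127, 131 and 135 with Fucotrim I, 167 and 181 with Fucotrim II and 191, 178 and 188 with SGN-2FF. With P-SiaFNEtoc the values were 207, 212 and 224 CPM. The 3 sets of fucosylation inhibitor libraries lay below DMSO without overlap. The log2 fold changes were -0.68 (SE 0.05, adjusted p = 1.82e-09), -0.28 (SE 0.06, adjusted p = 0.00481) and -0.17 (SE 0.04, adjusted p = 0.00363), and the last missed the threshold without SGN-2FF replicate 2 (adjusted p = 0.0602). YARS2 had 48.1, 43.8 and 45.1 CPM in DMSO, 40.4, 44.5 and 47.2 with Fucotrim I, 37.4 and 38.7 with Fucotrim II, 45.9, 45.3 and 43.8 with SGN-2FF and 41.8, 39.2 and 43.0 with P-SiaFNEtoc. It fell with Fucotrim II by 0.27 (SE 0.08, adjusted p = 0.0148), a call lost without DMSO replicate 1 (adjusted p = 0.0743). Its P-SiaFNEtoc libraries also lay below DMSO, at -0.14 (adjusted p = 0.0962). Opposite-strand genes share 18.1% of the exon bases of YARS2.

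GARS1, which makes the glycine enzyme of cytosol and mitochondria (chromosome 7, 30580533 to 30634033), had 327, 327 and 317 CPM in DMSO. It had 197, 211 and 211 CPM with Fucotrim I, 232 and 255 with Fucotrim II, 294, 282 and 287 with SGN-2FF and 309, 327 and 333 with P-SiaFNEtoc. The groups of all 3 fucosylation inhibitors stood apart from DMSO. GARS1 fell by 0.65 (SE 0.05, adjusted p = 2.34e-09), 0.41 (SE 0.06, adjusted p = 0.000597) and 0.16 (SE 0.04, adjusted p = 0.00223), and its log2 fold change with P-SiaFNEtoc was 0.00. KARS1, the other enzyme of both compartments, had a DMSO mean of 189 ± 8.45 CPM (SD, n = 3) and log2 fold changes of -0.07, -0.20, -0.01 and 0.04 in the same order. Of these only -0.20 passed the test (adjusted p = 0.0478).

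EPRS1 (chromosome 1, 219968600 to 220046530), a member of the multisynthetase complex, was the most abundant of the 35 genes in CPM. Its DMSO libraries had 533, 519 and 518 CPM, against 337, 356 and 338 with Fucotrim I, 348 and 343 with Fucotrim II, 462, 447 and 459 with SGN-2FF and 486, 489 and 482 with P-SiaFNEtoc. Every treated library, those of P-SiaFNEtoc included, lay below every DMSO library. The falls were 0.60 with Fucotrim I (SE 0.05, adjusted p = 2.96e-09), 0.61 with Fucotrim II (SE 0.06, adjusted p = 5.48e-05) and 0.19 with SGN-2FF (SE 0.03, adjusted p = 0.000233).

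IARS1, the cytosolic isoleucine enzyme and also a member of the complex (chromosome 9, 92210207 to 92293854), had 427, 447 and 426 CPM in DMSO, 280, 301 and 285 with Fucotrim I, 355 and 314 with Fucotrim II, 370, 361 and 375 with SGN-2FF and 403, 406 and 418 with P-SiaFNEtoc. All treated libraries lay below DMSO. Its log2 fold changes were -0.58 (SE 0.05, adjusted p = 7.69e-09), -0.38 (SE 0.07, adjusted p = 0.00186), -0.22 (SE 0.04, adjusted p = 4.53e-05) and, with P-SiaFNEtoc, -0.08 (SE 0.04, adjusted p = 0.151). IARS2 (chromosome 1, 220094132 to 220148041) stood out among the mitochondrial genes by level. It had 401, 387 and 373 CPM in DMSO, 299, 301 and 294 with Fucotrim I, 241 and 249 with Fucotrim II, 335, 344 and 369 with SGN-2FF and 363, 356 and 365 with P-SiaFNEtoc, again with every treated library below DMSO. IARS2 fell by 0.37 (SE 0.05, adjusted p = 2.31e-06), 0.67 (SE 0.06, adjusted p = 4.19e-05) and 0.14 (SE 0.04, adjusted p = 0.0142) with the fucosylation inhibitors. The call with SGN-2FF was lost without DMSO replicate 1 or SGN-2FF replicate 1 or 2 (adjusted p from 0.0708 to 0.105).

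SARS1, the serine enzyme of the cytosol (chromosome 1, 109213918 to 109238182), and SARS2, that of mitochondria (chromosome 19, 38915266 to 38930763), were called in opposite directions with Fucotrim I and SGN-2FF. SARS1 had 217, 218 and 209 CPM in DMSO, 146, 145 and 147 with Fucotrim I, 202 and 218 with Fucotrim II, 187, 183 and 184 with SGN-2FF and 217, 217 and 231 with P-SiaFNEtoc. It fell by 0.56 with Fucotrim I (SE 0.05, adjusted p = 1.90e-08) and by 0.20 with SGN-2FF (SE 0.04, adjusted p = 0.000359), and its Fucotrim II libraries overlapped with DMSO. SARS2 had 34.0, 36.0 and 35.7 CPM in DMSO, 46.5, 43.9 and 48.9 with Fucotrim I, 42.3 and 41.9 with Fucotrim II, 41.2, 40.2 and 41.6 with SGN-2FF and 40.3, 35.9 and 42.0 with P-SiaFNEtoc. The libraries of the 3 fucosylation inhibitors all lay above DMSO. It rose by 0.40 (SE 0.07, adjusted p = 7.61e-05), 0.25 (SE 0.07, adjusted p = 0.0167) and 0.23 (SE 0.06, adjusted p = 0.00665), and the call with Fucotrim II was lost without DMSO replicate 1 or 3 (adjusted p = 0.0881 and 0.0607). Another annotated gene on the same strand shares 48.2% of the exon bases of SARS2, so how reads were divided there is uncertain.

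WARS1, the tryptophan enzyme, which interferons are known to induce, showed the same order of groups as SARS1. It had 137, 141 and 140 CPM in DMSO, 107, 99.7 and 102 with Fucotrim I, 129 and 140 with Fucotrim II, 117, 116 and 121 with SGN-2FF and 136, 141 and 148 with P-SiaFNEtoc. It fell by 0.44 with Fucotrim I (SE 0.05, adjusted p = 1.50e-06) and by 0.23 with SGN-2FF (SE 0.04, adjusted p = 0.000295), while the Fucotrim II libraries overlapped with DMSO. WARS2 had 22.9, 23.0 and 24.1 CPM in DMSO, 18.5, 20.4 and 18.6 with Fucotrim I, 19.7 and 17.9 with Fucotrim II, 21.8, 21.4 and 22.9 with SGN-2FF and 21.5, 23.1 and 23.5 with P-SiaFNEtoc. It fell by 0.28 with Fucotrim I (SE 0.08, adjusted p = 0.00957) and by 0.32 with Fucotrim II (SE 0.09, adjusted p = 0.0150), the latter not without DMSO replicate 3 (adjusted p = 0.0555).

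MARS1, the methionine enzyme of the complex, had 252, 255 and 257 CPM in DMSO and 180, 176 and 177 with Fucotrim I. It had 230 and 224 CPM with Fucotrim II, 232, 241 and 231 with SGN-2FF and 249, 253 and 258 with P-SiaFNEtoc. It fell by 0.52 (SE 0.05, adjusted p = 3.00e-08), 0.17 (SE 0.06, adjusted p = 0.0330) and 0.11 (SE 0.04, adjusted p = 0.0398). The call with Fucotrim II was lost without any one DMSO library (adjusted p from 0.101 to 0.126) and that with SGN-2FF without any one of the 6 libraries in that comparison (0.0571 to 0.124). Genes on the opposite strand, DDIT3 among them, share 12.4% of the exon bases of MARS1, and the strand setting of the counting is not given in the sources used here. MARS2 had 70.2, 68.8 and 66.1 CPM in DMSO, 65.6, 61.7 and 55.3 with Fucotrim I, 50.9 and 49.7 with Fucotrim II, 66.3, 68.3 and 73.6 with SGN-2FF and 61.0, 63.3 and 67.9 with P-SiaFNEtoc. It fell by 0.16 with Fucotrim I (SE 0.06, adjusted p = 0.0474) and by 0.45 with Fucotrim II (SE 0.07, adjusted p = 0.00053).

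NARS1 and NARS2, the asparagine enzymes, fell together with both Fucotrims. NARS1 had 281, 292 and 286 CPM in DMSO, 216, 242 and 234 with Fucotrim I, 236 and 217 with Fucotrim II, 273, 261 and 282 with SGN-2FF and 286, 291 and 294 with P-SiaFNEtoc. NARS2 had 29.8, 29.3 and 28.9 CPM in DMSO, 20.2, 22.6 and 22.3 with Fucotrim I, 21.3 and 21.2 with Fucotrim II, 26.7, 26.1 and 29.4 with SGN-2FF and 28.3, 31.5 and 29.0 with P-SiaFNEtoc. For both genes the Fucotrim libraries lay below DMSO and the SGN-2FF and P-SiaFNEtoc libraries overlapped with it. NARS1 fell by 0.31 with Fucotrim I (SE 0.05, adjusted p = 5.93e-05) and 0.34 with Fucotrim II (SE 0.07, adjusted p = 0.00191). NARS2 fell by 0.43 (SE 0.08, adjusted p = 0.000135) and 0.47 (SE 0.08, adjusted p = 0.000991).

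The leucine enzymes differed in the other direction, with the larger values in the mitochondrial gene. LARS2 had 90.9, 91.8 and 88.4 CPM in DMSO, 78.7, 73.2 and 79.9 with Fucotrim I, 63.8 and 70.8 with Fucotrim II, 81.4, 80.3 and 72.8 with SGN-2FF and 82.4, 85.2 and 85.5 with P-SiaFNEtoc. Every treated library lay below every DMSO library. LARS2 fell by 0.22 (SE 0.06, adjusted p = 0.00294), 0.43 (SE 0.07, adjusted p = 0.000773) and 0.20 (SE 0.05, adjusted p = 0.0052) with the fucosylation inhibitors, and its value with P-SiaFNEtoc was -0.10 (adjusted p = 0.139). LARS1 had 135, 143 and 136 CPM in DMSO, 114, 136 and 121 with Fucotrim I, 142 and 124 with Fucotrim II, 130, 140 and 147 with SGN-2FF and 134, 134 and 135 with P-SiaFNEtoc. It overlapped with DMSO under every inhibitor, and its log2 fold changes were -0.15, -0.06, 0.02 and -0.03.

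Of the genes that rose, QARS1, the glutamine enzyme of the complex (chromosome 3, 49095932 to 49105130), had 187, 200 and 187 CPM in DMSO, 216, 207 and 217 with Fucotrim I, 225 and 250 with Fucotrim II, 213, 213 and 204 with SGN-2FF and 199, 191 and 214 with P-SiaFNEtoc. The fucosylation inhibitor libraries lay above DMSO. It rose by 0.16 (SE 0.05, adjusted p = 0.0111), 0.31 (SE 0.07, adjusted p = 0.00439) and 0.15 (SE 0.04, adjusted p = 0.00994). The call with Fucotrim I was lost without DMSO replicate 1 or 3 (adjusted p = 0.0659 and 0.0725) and that with SGN-2FF without DMSO replicate 1 or 3 or SGN-2FF replicate 2 (0.0646 to 0.0828). CARS2, the mitochondrial cysteine enzyme (chromosome 13, 110641412 to 110713603), had 78.8, 70.3 and 73.8 CPM in DMSO, 97.0, 93.1 and 92.0 with Fucotrim I, 90.6 and 98.2 with Fucotrim II, 82.3, 79.5 and 82.8 with SGN-2FF and 77.9, 71.5 and 78.0 with P-SiaFNEtoc. It rose by 0.34 (SE 0.06, adjusted p = 7.98e-05), 0.34 (SE 0.07, adjusted p = 0.00373) and 0.14 (SE 0.05, adjusted p = 0.0426), and the last call was lost without DMSO replicate 2 or 3 or any SGN-2FF library (adjusted p from 0.0836 to 0.184).

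**Figure D3:**
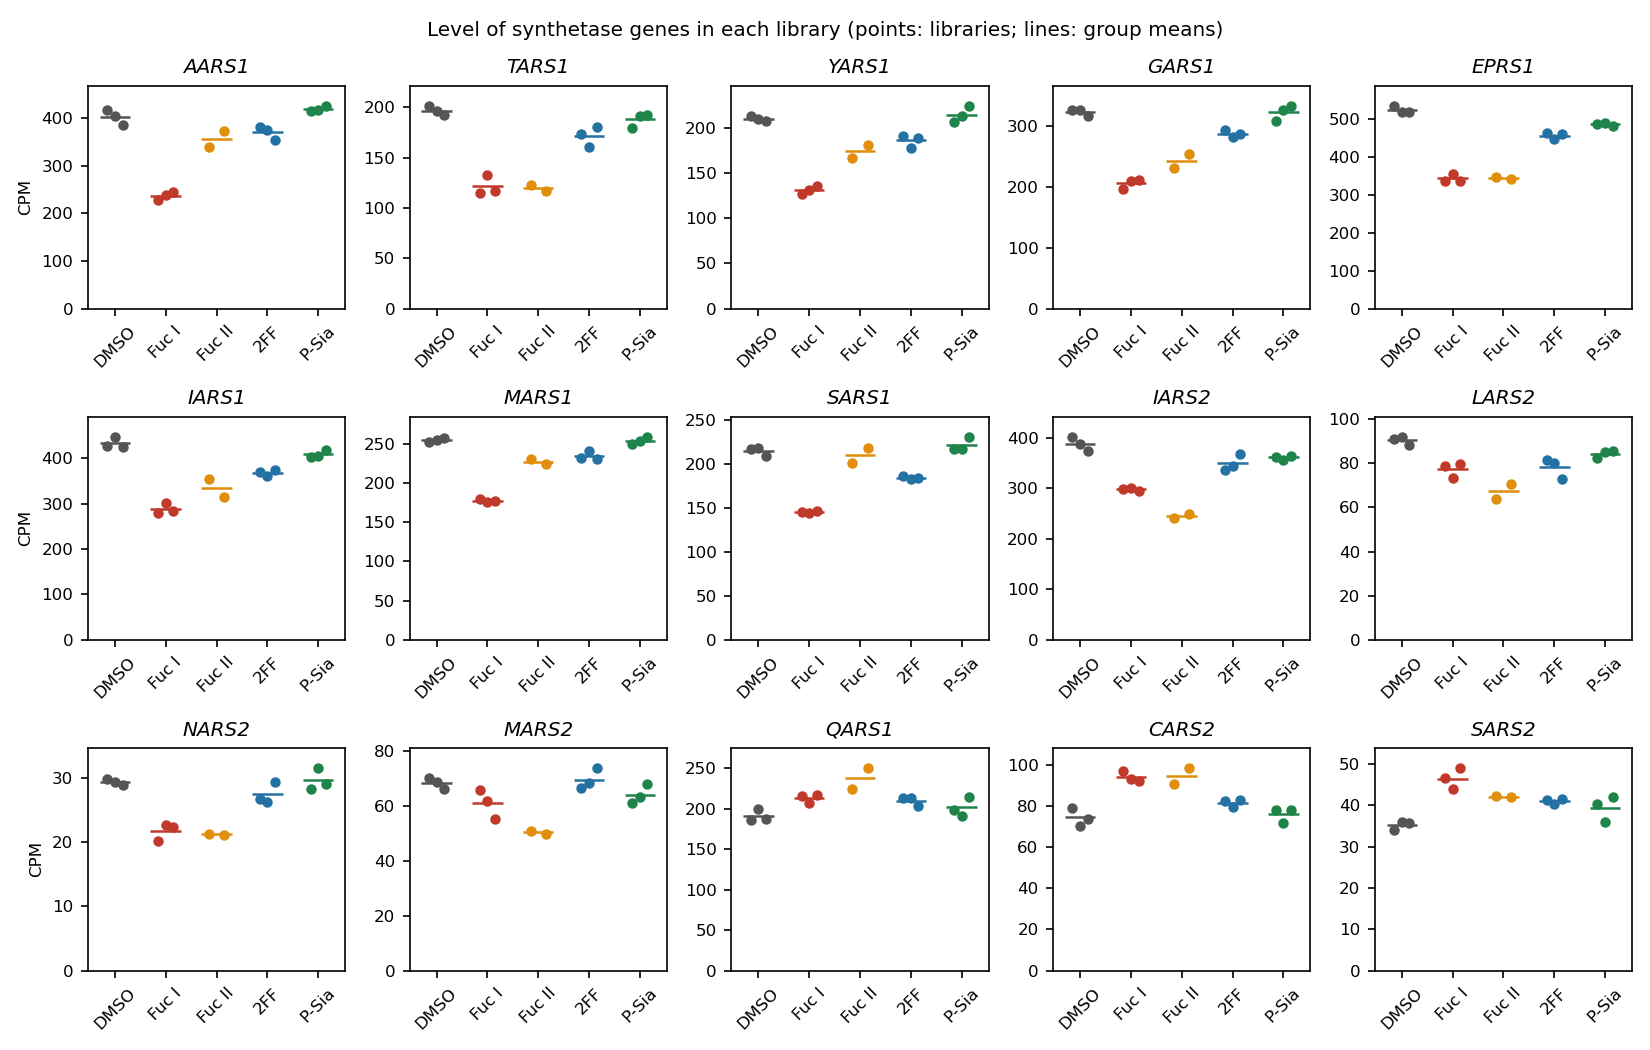
CPM of 15 synthetase genes in each of the 14 libraries, with axes from 0; points are libraries and lines are group means, and Fuc I, Fuc II, 2FF and P-Sia stand for Fucotrim I, Fucotrim II, SGN-2FF and P-SiaFNEtoc. AARS1 runs from 386 to 417 CPM in DMSO and from 228 to 245 CPM with Fucotrim I, whereas SARS2 rises from 34.0 to 36.0 CPM to 43.9 to 48.9 CPM.

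Of the remaining tested genes, only FARSB and EARS2 were called, each with Fucotrim II alone. The cytosolic FARSA and FARSB encode the subunits of 1 phenylalanine enzyme: FARSB fell by 0.27 with Fucotrim II (SE 0.07, adjusted p = 0.00787), and FARSA had 0.09 there (SE 0.09, adjusted p = 0.442). HARS1 and RARS1, the histidine and arginine enzymes, had log2 fold changes from -0.17 to 0.10 over the 4 inhibitors. Among the mitochondrial genes, EARS2, the glutamate enzyme, fell by 0.25 with Fucotrim II (SE 0.08, adjusted p = 0.0192), and FARS2, HARS2, PARS2 and RARS2 had values from -0.14 to 0.19 and no call. HARS1 and HARS2 lie head to head on opposite strands, with starts 107 bases apart, and had log2 fold changes of 0.09 and -0.07 with Fucotrim I.

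Libraries were also compared without a model, and the result differed in part from the calls. By the calls, 11 of 18 cytosolic and 5 of 15 mitochondrial genes tested fell with Fucotrim I, and the shares by libraries lay closer together. With Fucotrim I, all treated libraries lay below all DMSO libraries for 10 of 19 cytosolic and 8 of 16 mitochondrial genes, against 26.4% of the 14877 genes compared in this way (51.1% stood apart from DMSO in either direction). The figures for Fucotrim II were 11 and 8 genes, against 33.4% (67.0% in either direction), and those for SGN-2FF were 11 and 3, against 18.9% (35.6%). With P-SiaFNEtoc they were 3 and 4, against 16.6% (32.9%). Treated libraries lay wholly above DMSO for 2 cytosolic and 2 mitochondrial genes with Fucotrim I (24.7% of all genes), 1 and 2 with Fucotrim II (33.6%), 2 and 2 with SGN-2FF (16.7%) and 1 and 1 with P-SiaFNEtoc (16.3%).

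Enzymes of the same amino acid were compared pair by pair, for the 13 pairs of tested genes without CARS1, in which FARS2 appears with each subunit of its cytosolic counterpart. With Fucotrim I, only the cytosolic gene was called lower in 4 pairs (alanine, serine, threonine and tyrosine), both genes in 5 (asparagine, isoleucine, leucine, methionine and tryptophan), neither in 4 and the mitochondrial gene alone in 0. With Fucotrim II the counts were 3, 4, 4 and 2 in the same order, the last 2 being leucine and tryptophan. With SGN-2FF they were 6, 1, 5 and 1, and with P-SiaFNEtoc neither gene of any of the 13 pairs was called lower. The median difference, cytosolic minus mitochondrial, was -0.21 on the log2 scale with Fucotrim I, 0.08 with Fucotrim II, -0.09 with SGN-2FF and 0.06 with P-SiaFNEtoc. The widest gaps with Fucotrim I were those of serine (-0.95), alanine (-0.86), tyrosine (-0.63) and threonine (-0.59). Differences within pairs were not tested.

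**Figure D4:**
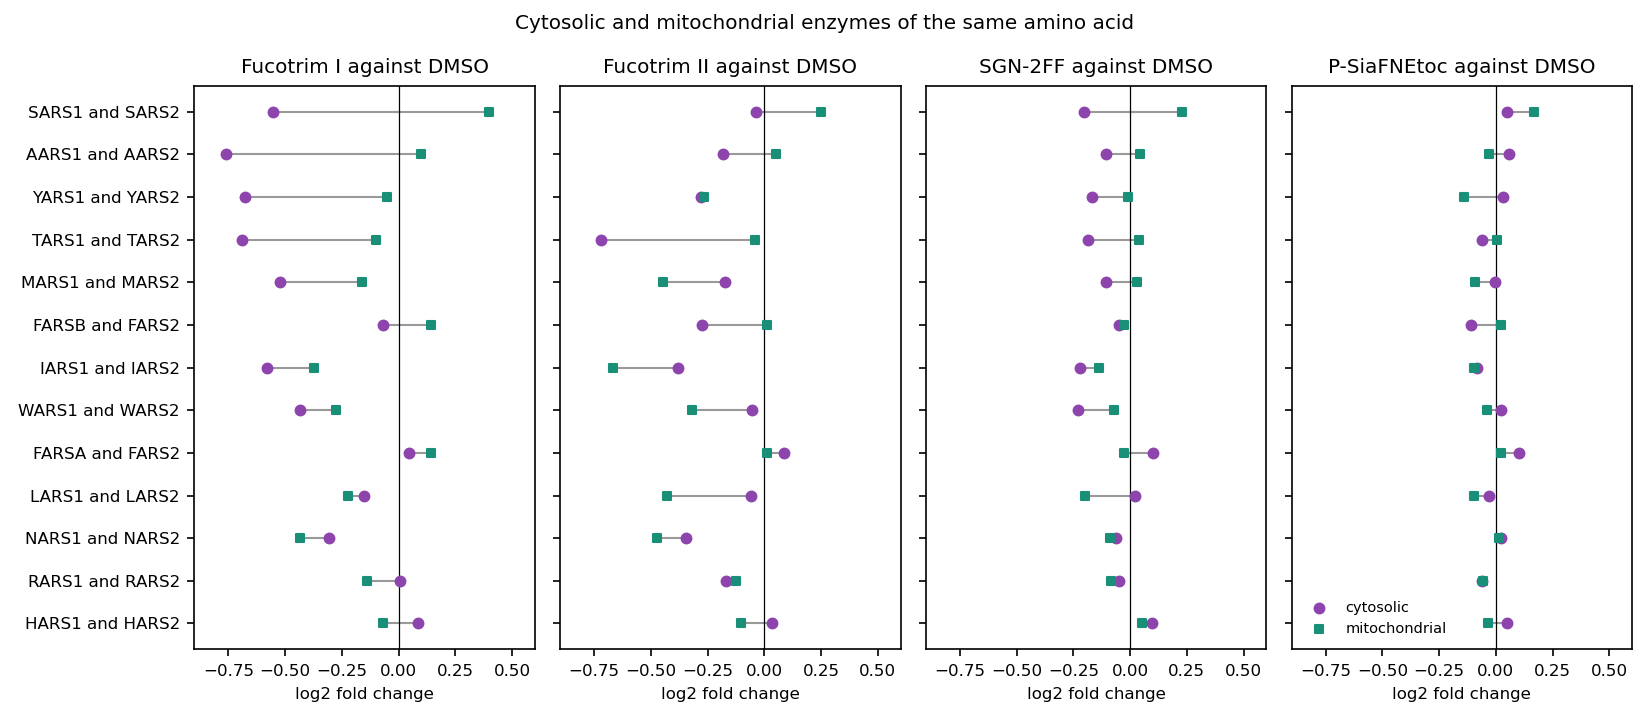
Log2 fold change of the cytosolic (circle) and mitochondrial (square) enzyme gene of the same amino acid with each inhibitor against DMSO, joined by a line, for 13 pairs ordered by their difference with Fucotrim I. With Fucotrim I the circles of the serine, alanine, tyrosine and threonine pairs lie between -0.76 and -0.56 and the squares between -0.10 and 0.40, while with Fucotrim II the squares of the isoleucine, leucine, methionine and tryptophan pairs lie 0.26 to 0.37 below their circles.

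Summed over all 19 cytosolic genes, the libraries held 3943 to 4046 CPM in DMSO, 2971 to 3044 with Fucotrim I, 3349 and 3434 with Fucotrim II, 3656 to 3732 with SGN-2FF and 3902 to 4082 with P-SiaFNEtoc. The 16 mitochondrial genes summed to 1085 to 1119 CPM in DMSO, 990 to 1005 with Fucotrim I, 889 and 927 with Fucotrim II, 1052 to 1078 with SGN-2FF and 1044 to 1092 with P-SiaFNEtoc. The cytosolic sum of every library of the 3 fucosylation inhibitors lay below DMSO, and the mitochondrial sum did as well. The ratio of the sums was 3.64 ± 0.04 (SD, n = 3) in DMSO, 3.02 ± 0.05 with Fucotrim I (n = 3), 3.74 ± 0.04 with Fucotrim II (n = 2), 3.48 ± 0.05 with SGN-2FF (n = 3) and 3.73 ± 0.06 with P-SiaFNEtoc (n = 3). IARS2 alone held 35.2% ± 0.722 of the mitochondrial sum in DMSO and 26.9% ± 0.179 with Fucotrim II. Without IARS2, the mitochondrial sum was 713 ± 3.82 CPM in DMSO, 713 ± 7.38 with SGN-2FF, 699 ± 5.50 with Fucotrim I and 663 ± 21.0 with Fucotrim II. The place of Fucotrim II in the ratio rested on this gene: without IARS2, which was left out after its values were seen, the ratio was 5.62 ± 0.07 in DMSO, 4.31 ± 0.08 with Fucotrim I, 5.11 ± 0.07 with Fucotrim II, 5.18 ± 0.02 with SGN-2FF and 5.65 ± 0.09 with P-SiaFNEtoc, so Fucotrim II then lay below DMSO. These sums are descriptions of the chosen genes and were not tested.

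**Figure D5:**
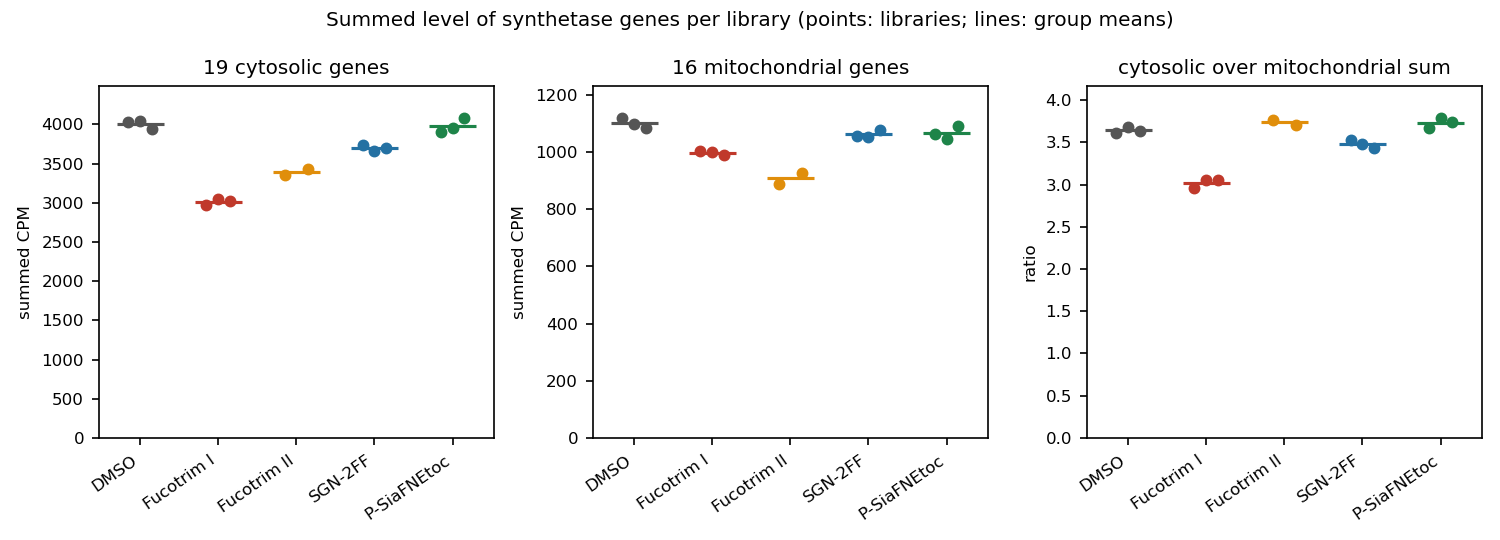
Summed CPM of the 19 cytosolic genes (left) and the 16 mitochondrial genes (middle) and the ratio of the sums (right) in each of the 14 libraries; points are libraries, lines are group means and axes start at 0. The cytosolic sum is lowest with Fucotrim I, the mitochondrial sum with Fucotrim II, and the ratio with Fucotrim I (2.96 to 3.05).

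By their place in the cell, the 7 synthetase genes of the multisynthetase complex (EPRS1, IARS1, KARS1, LARS1, MARS1, QARS1 and RARS1) had 4 falls and 1 rise with Fucotrim I, 4 and 1 with Fucotrim II and 3 and 1 with SGN-2FF. The cytosolic genes outside it, 11 of them tested, had 7, 6 and 6 falls and 0 rises. Over all genes, 22.1%, 25.7%, 9.08% and 7.33% fell with Fucotrim I, Fucotrim II, SGN-2FF and P-SiaFNEtoc. The shares that rose were 21.6%, 25.6%, 11.5% and 9.02%, and all these shares apply to each of the lists that follow. The scaffold genes of the complex, AIMP1, AIMP2 and EEF1E1, had no fall with any inhibitor, and AIMP2 rose by 0.17 with Fucotrim I (SE 0.06, adjusted p = 0.0243), but not without DMSO replicate 1 or 3 or Fucotrim I replicate 3 (adjusted p from 0.0736 to 0.108).

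Promoters were read next, since part of the family moved together. RefSeq promoter windows, from 250 bases before to 50 bases after the start, were found for 16 cytosolic and 14 mitochondrial genes; LARS1, VARS1, YARS1, AARS2 and VARS2 had none. The letters TGATGNAA, a form of the C/EBP-ATF response element to which ATF4 and its partners are known to bind, were searched on both strands. They were found for 7 of these 16 cytosolic genes and 1 of the 14 mitochondrial ones, YARS2, against 2.76% of the 11686 tested genes with a window. Some genes have more than 1 window, and 3.62% of all 35116 single windows held a match. The 30 bases around each match are shown because these are the genes whose levels were compared above; they are written on the strand of the gene (GRCh38.p14), with the match in capitals.
AARS1, chr16:70289675-70289704, minus strand: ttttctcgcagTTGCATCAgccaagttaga
CARS1, chr11:3057407-3057436, minus strand: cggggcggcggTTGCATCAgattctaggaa
GARS1, chr7:30594834-30594863, plus strand: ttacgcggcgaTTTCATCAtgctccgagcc
IARS1, chr9:92293692-92293721, minus strand: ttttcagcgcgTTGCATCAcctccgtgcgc
MARS1, chr12:57488053-57488082, plus strand: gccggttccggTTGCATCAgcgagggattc
NARS1, chr18:57621804-57621833, minus strand: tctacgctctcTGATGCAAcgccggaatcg
TARS1, chr5:33440956-33440985, plus strand: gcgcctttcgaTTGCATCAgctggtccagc
YARS2, chr12:32756076-32756105, minus strand: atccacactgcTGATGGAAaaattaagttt

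In AARS1, CARS1, IARS1, MARS1, NARS1 and TARS1 the match read the same letters, TTGCATCA or its complement, and in CARS1, IARS1, MARS1, NARS1 and TARS1 it lay within 20 bases of the start (first base at -2, -13, -4, 15 and 3, with the start at 1). The match of GARS1 lay at -33, that of AARS1 at -187 and that of YARS2 at -197. These distances are counted from RefSeq starts and depend on the start used. The AARS1 stretch lies inside the GENCODE span of that gene (70251983 to 70289707), near its 5' end. The genes with a match in a cytosolic window numbered 7, of which 6 fell with each of the Fucotrims and 5 with SGN-2FF, with medians of -0.58, -0.34 and -0.16. The 9 cytosolic genes with a window and no match had 3 falls with each of the 3 fucosylation inhibitors, with medians of -0.07, -0.05 and -0.05, and EPRS1, SARS1 and WARS1, which fell with Fucotrim I, were among them. Of the genes with a match, CARS1 was called with no inhibitor and NARS1 not with SGN-2FF (adjusted p = 0.261), and with P-SiaFNEtoc no gene was called in either group. The E-box CACGTG, which factors of the MYC family are known to bind, was found for 1 cytosolic gene (IARS1) and 3 mitochondrial genes (CARS2, EARS2 and MARS2). The share of the tested genes was 12.3%. These matches are letters in a window, and no binding was measured.

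ATF4 itself had 480, 470 and 481 CPM in DMSO, 263, 270 and 280 with Fucotrim I, 412 and 418 with Fucotrim II, 443, 434 and 422 with SGN-2FF and 419, 443 and 449 with P-SiaFNEtoc. Every treated library lay below every DMSO library. It fell by 0.81 with Fucotrim I (SE 0.05, adjusted p = 3.56e-11), 0.21 with Fucotrim II (SE 0.06, adjusted p = 0.0145), 0.13 with SGN-2FF (SE 0.03, adjusted p = 0.00837) and 0.12 with P-SiaFNEtoc (SE 0.04, adjusted p = 0.0270). The call with Fucotrim II was lost without any one DMSO library (adjusted p from 0.0574 to 0.0846), and that with P-SiaFNEtoc without DMSO replicate 1 or 3 or P-SiaFNEtoc replicate 1 or 2 (0.0721 to 0.146). The 12 genes listed for the amino acid stress kinases and ATF4 had 8 falls and 0 rises with Fucotrim I, 5 and 1 with Fucotrim II, 4 and 0 with SGN-2FF and 3 and 2 with P-SiaFNEtoc. That is 66.7%, 41.7%, 33.3% and 25.0% lower, against 22.1%, 25.7%, 9.08% and 7.33% of all genes. EIF2AK2, the RNA-activated kinase of the initiation factor eIF2, fell with all 4 inhibitors (-0.54, -0.90, -0.45 and -0.25), the last not without DMSO replicate 1 or P-SiaFNEtoc replicate 1 or 3 (adjusted p from 0.0565 to 0.211). TRIB3, an ATF4 target that feeds back on it, fell by 0.54 with Fucotrim I and 0.38 with SGN-2FF and rose by 0.21 with P-SiaFNEtoc.

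Genes that supply amino acids also contain known ATF4 targets. Of 17 genes for amino acid synthesis, 10 fell and 1 rose with Fucotrim I, 6 and 4 with Fucotrim II, 6 and 2 with SGN-2FF and 1 and 4 with P-SiaFNEtoc. The lower share was 58.8% with Fucotrim I, against 22.1% of all genes, and 35.3% with Fucotrim II, nearer to the 25.7% of all genes. With P-SiaFNEtoc it was 5.88%, against 7.33% of all genes, where 9.02% of all genes rose. ASNS, which makes asparagine, fell by 1.03 (SE 0.05, adjusted p = 6.12e-12), 0.52 and 0.46 with the fucosylation inhibitors and by 0.13 with P-SiaFNEtoc, from 311 ± 9.41 CPM in DMSO to 151 ± 8.93 with Fucotrim I (SD, n = 3 each). Its P-SiaFNEtoc call was lost without DMSO replicate 2 or 3 or P-SiaFNEtoc replicate 1 or 2 (adjusted p from 0.0669 to 0.153). PSAT1, of serine synthesis, fell by 0.85, 0.68 and 0.35, and GLUL, which makes glutamine, rose by 0.31 with Fucotrim II, 0.33 with SGN-2FF and 0.36 with P-SiaFNEtoc. Of 12 amino acid transporter genes, 9 fell and 2 rose with Fucotrim I, and 4 and 4 with Fucotrim II. The counts were 7 and 1 with SGN-2FF and 1 and 0 with P-SiaFNEtoc. Thus 75.0%, 33.3%, 58.3% and 8.33% fell, against 22.1%, 25.7%, 9.08% and 7.33% of all genes. SLC7A11, the cystine importer, fell by 2.04 (SE 0.09, adjusted p = 5.65e-12), 1.35 and 0.74, from 119 ± 3.19 CPM in DMSO to 28.7 ± 5.09 with Fucotrim I (n = 3 each). Its partner chain SLC3A2 fell by 0.42 with Fucotrim I and 0.28 with SGN-2FF and rose by 1.04 with Fucotrim II. SLC43A1, a transporter of neutral amino acids, rose by 0.83, 1.12 and 0.30, the last not without DMSO replicate 2 or 3 or SGN-2FF replicate 1 (adjusted p from 0.0663 to 0.0698).

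Downstream of charging, the genes of cytosolic elongation, which brings charged tRNA to the ribosome and moves it on, went the other way with the Fucotrims: 5 of 6 rose with each, none of the 6 with SGN-2FF and 1, EEF1A2, with P-SiaFNEtoc, against 21.6%, 25.6%, 11.5% and 9.02% of all genes that rose. EEF1A2 with P-SiaFNEtoc lost its call without DMSO replicate 2 or 3 or P-SiaFNEtoc replicate 1 or 3 (adjusted p from 0.0789 to 0.148). EEF1A1 rose by 0.26 with Fucotrim I and 0.62 with Fucotrim II, and EEF2 by 0.20 and 0.68, the former not without DMSO replicate 2 (adjusted p = 0.0546). The 9 mitochondrial translation factor genes had 0 falls and 1 rise with Fucotrim I and 3 and 1 with Fucotrim II, where GFM1, a mitochondrial elongation factor, fell by 0.40 and the release factor gene MTRF1 rose by 0.69. The rise with Fucotrim I was also MTRF1 (0.46), not called without DMSO replicate 1 or Fucotrim I replicate 2 (adjusted p = 0.0680 and 0.133). None of the 9 was called with SGN-2FF or P-SiaFNEtoc. Of the 6 genes for indirect charging and for formylation of the initiator tRNA, GATC and QRSL1, subunits of the mitochondrial amidotransferase that makes glutaminyl-tRNA, fell with Fucotrim I (-0.19 and -0.22) and Fucotrim II (-0.21 and -0.34), and MTFMT, which formylates the mitochondrial initiator tRNA, fell with SGN-2FF by 0.28. Of these calls, those of GATC with Fucotrim I and Fucotrim II, of QRSL1 with Fucotrim I and of MTFMT were each lost without single libraries, DMSO replicate 2 among them for GATC and QRSL1 (adjusted p = 0.126, 0.154 and 0.0630) and DMSO replicate 1 for MTFMT (0.0629). DTD1 and DTD2, which remove D-amino acids from tRNA, fell with Fucotrim II by 0.26 and 0.40, DTD1 not without any one DMSO library or Fucotrim II replicate 1 (adjusted p from 0.0883 to 0.238).

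Upstream of charging, 12 of 13 genes for tRNA maturation and export were tested, of which 3 fell and 1 rose with Fucotrim I, 7 and 1 with Fucotrim II, 1 and 0 with SGN-2FF and 3 and 0 with P-SiaFNEtoc. The lower share was 25.0% with Fucotrim I and 58.3% with Fucotrim II, against 22.1% and 25.7% of all genes. It was 8.33% with SGN-2FF and 25.0% with P-SiaFNEtoc, against 9.08% and 7.33%. XPOT, which exports tRNAs from the nucleus, was called lower with all 4 inhibitors, by 0.66 (SE 0.05, adjusted p = 4.05e-09), 0.33, 0.26 and 0.12, the last not without DMSO replicate 1 or 2 or P-SiaFNEtoc replicate 2 or 3 (adjusted p from 0.0608 to 0.0902). SSB, which binds new RNA polymerase III transcripts, fell by 0.43 with Fucotrim II, and TSEN54, a subunit of the splicing endonuclease, rose by 0.18 with Fucotrim I and 0.23 with Fucotrim II, in both cases not without DMSO replicate 1 or 2 (adjusted p from 0.0693 to 0.0795). The tRNAs of the mitochondrial genome, the substrates of the mitochondrial enzymes, were hardly counted in these libraries of polyadenylated RNA: 5, 7, 5 and 4 of the 22 genes passed the filter on low counts with Fucotrim I, Fucotrim II, SGN-2FF and P-SiaFNEtoc. A gene that passes only through its treated libraries had to be higher there, so no count is drawn from them. TRNY, the tRNA of YARS2, had 0.880, 2.56 and 2.26 CPM in DMSO, 5.81, 3.92 and 10.4 with Fucotrim I, 22.1 and 23.6 with Fucotrim II, 8.26, 6.12 and 4.79 with SGN-2FF and 2.74, 3.53 and 3.65 with P-SiaFNEtoc. TRNC, the tRNA of CARS2, had 4.18, 5.28 and 4.76 CPM in DMSO, 7.89, 9.93 and 11.1 with Fucotrim I, 21.3 and 13.1 with Fucotrim II, 4.09, 4.75 and 5.85 with SGN-2FF and 2.69, 3.78 and 3.09 with P-SiaFNEtoc. TRNY lay above DMSO with all 4 inhibitors, and TRNC with the Fucotrims. With P-SiaFNEtoc TRNY rose by 0.80 (SE 0.26, adjusted p = 0.0393). That call was lost without DMSO replicate 1 or 3 or P-SiaFNEtoc replicate 2 or 3 (adjusted p from 0.0518 to 0.173). TRNC lay below DMSO with P-SiaFNEtoc, where it fell by 0.58 (SE 0.16, adjusted p = 0.0137). The fall was not called without DMSO replicate 2 or P-SiaFNEtoc replicate 1 (adjusted p = 0.0711 and 0.0885).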

How the data were processed

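RNA-seq was made from 14 CWR22RV1 cultures in 5 groups. Per the labels and the study's methods, the authors sequenced stranded poly(A) libraries with single reads, checked them with FastQC, trimmed them with Cutadapt, aligned them with HISAT2 to hg38 and deposited raw counts per gene from featureCounts. The annotation release, strand setting and treatment of multi-mapping reads are not given in the sources used here. The 4 deposited count tables hold 1 inhibitor each with identical DMSO columns, and were joined over 27819 genes. Depth was 12553094 to 19981453 counts on genes per library.

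Each inhibitor was compared with DMSO in edgeR 4.0.16 (quasi-likelihood test, robust, TMM, filterByExpr with a minimum count of 10 and a minimum total of 15), with Benjamini-Hochberg adjustment over all genes tested and a threshold of 0.05. Printed CPM values come from 1 TMM scaling of all 14 libraries over 14877 genes, and fold changes from each inhibitor's own fit, so the ratio of CPM values can differ slightly from a fold change. Alternatives were DESeq2 1.42.0, limma-voom (limma 3.58.1), other filters, a threshold of 0.01, a single fit, mitochondrially encoded genes left out, a replicate block and each library left out. The script was tested on simulated data.

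Gene positions, lengths and overlaps come from GENCODE v44 on hg38, and promoter windows from RefSeq on GRCh38.p14, where 30 of the 35 synthetase genes matched. All 35 genes could be named. Values of every library were given for the 6 largest calls per inhibitor and for the partner gene of the same amino acid. Those of QARS1 and CARS2, which rose with each fucosylation inhibitor, were given outside this rule. Of the other lists only some calls were named, and these were not always the largest. Left out were, among others, the rises of PYCR1 and SLC6A9 and the fall of PSPH with Fucotrim II. The rise of PPP1R15A with P-SiaFNEtoc was also left out. The counts of falls and rises cover all tested genes of each list. The members and lists were chosen with earlier results of these data known.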

Additional observations from a re-analysis of the deposited data

How the results depend on the processing

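No call of a synthetase gene, and none of the 27 other genes given with values, reversed its direction under these alternatives; sums, pairs and counts over the other lists were not recomputed under them. Of the 66 calls of those 27 genes 41 were kept in every alternative at the 0.05 threshold, in a comparison chosen after seeing the data. Of the synthetase genes called, 16 of 19 with Fucotrim I, 10 of 20 with Fucotrim II and 7 of 14 with SGN-2FF were called in every alternative at the 0.05 threshold, and the cause of the losses was not tested. At a threshold of 0.01, cytosolic genes higher with Fucotrim I went from 1 to 0, mitochondrial genes higher from 2 to 1 with Fucotrim II and with SGN-2FF, and mitochondrial genes lower from 7 to 4 with Fucotrim II and from 2 to 1 with SGN-2FF. In DESeq2, cytosolic genes higher with Fucotrim II went from 1 to 2 (CARS1 was added), mitochondrial genes higher with SGN-2FF from 2 to 1 and cytosolic genes lower with P-SiaFNEtoc from 0 to 1. That last count was also 1 in limma-voom, without a filter on low counts and with at least 10 counts in every library. Mitochondrial genes higher with SGN-2FF were 1 without a filter and in the single fit, where cytosolic genes higher with SGN-2FF were 0. Only the larger moves of these counts are listed, and the main counts of cytosolic falls moved too. Both at 0.01 and in DESeq2, such falls were lost for LARS1 with Fucotrim I and for AARS1 and MARS1 with SGN-2FF. With Fucotrim II, those of AARS1, KARS1 and MARS1 were lost in the same settings.

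With each library left out in turn, cytosolic genes called lower numbered 10 to 11 with Fucotrim I, 7 to 11 with Fucotrim II, 5 to 8 with SGN-2FF and 0 to 1 with P-SiaFNEtoc, and those called higher 0 to 2, 1 to 3, 0 to 1 and 0 to 0. Mitochondrial genes called lower numbered 4 to 5, 5 to 7, 1 to 2 and 0 to 0, and those called higher 2 to 2, 1 to 3, 1 to 2 and 0 to 1. The cytosolic median with Fucotrim II ran from -0.26 to -0.16.

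Whether replicate numbers pair the libraries was not settled. Deviations of same-numbered libraries correlated at -0.19 to 0.19, with both numberings of Fucotrim II included. A block by title numbers raised the genes called over all genes with Fucotrim I (6209 to 7288) and P-SiaFNEtoc (2331 to 2674). It lowered them with Fucotrim II (7511 to 5300) and SGN-2FF (2946 to 2868). With the replicate block by title numbers, the cytosolic genes lower with Fucotrim II went from 10 to 5, the mitochondrial genes lower from 7 to 4 and higher from 2 to 1, and mitochondrial genes higher with P-SiaFNEtoc from 0 to 1 (SARS2). QARS1, FARSB and YARS1 lost their Fucotrim II calls under this block only (adjusted p = 0.0783, 0.0824 and 0.0821), and CARS1 gained one (0.0323). The Fucotrim II libraries carry other numbers in their library names. A block by those gave 2 cytosolic genes higher and 7779 genes called over all genes. In that block the falls of AARS1, KARS1 and MARS1 with Fucotrim II were not called (adjusted p = 0.132, 0.0968 and 0.0668). VARS1 and VARS2 had too few counts to test, CARS1 rests on 18 to 119 counts per library, and Fucotrim II has only 2 libraries.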
